A study of Mus musculus with 49 samples.

Results

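The 10 genes described here encode MLL1 (Mll1), the cofactors menin (Men1) and LEDGF (Psip1) that hold it on chromatin, 5 of its fusion partners (Mllt1, Mllt3, Mllt10, Aff1 and Aff4), the histone methyltransferase DOT1L (Dot1l) and the elongation kinase CDK9 (Cdk9). They were chosen by name as the DOT1L complex and the proteins around it, from a table of 38253 genes, and all 10 passed the filter on low values. RNA-seq had been done on 30 samples of sorted normal cells and 19 leukaemias driven by the MLL-AF9 fusion (MA9), to compare leukaemias that began in different blood-forming cells. Of the normal samples, taken from untransduced bone marrow, 5 were LT-HSC and 5 ST-HSC, the stem cells that rebuild blood for a long or a short time. Another 6 were MPP, multipotent progenitors, and 5 were CMP, the progenitors common to the myeloid lines. The last 5 were GMP, which give granulocytes and macrophages, and 4 were MEP, which give megakaryocytes and red cells. The leukaemias arose from ST-HSC (STHSC:MA9, n = 3), MPP (MPP:MA9, n = 6), CMP (CMP:MA9, n = 4) or GMP (GMP:MA9, n = 6) that had been infected with a retrovirus carrying MLL-AF9 with a GFP marker and put into sublethally irradiated mice. All mice were C57BL/6J, wild type in the labels and given as 6 to 12 weeks old, and the methods state that they were female. The age at which leukaemias were collected is not given. The paper reports the longest median survival after transplantation for GMP origin, so that the time to collection can differ between origins. The methods describe the leukaemia samples as bulk GFP+ cells sorted from spleen, whereas the labels give bone marrow as the tissue of every sample. None of the samples used here came from cells with an empty vector, so that the fusion, the infection and the transplantation cannot be told apart in any comparison of a leukaemia with a normal cell. The normal cells were sorted by surface markers of stem and progenitor cells and the leukaemias as bulk GFP+ cells. The sort, the stage of the cells and, by the methods, the tissue cannot be told apart from the fusion either.

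MLL1 is a histone H3 lysine 4 methyltransferase that keeps the Hoxa genes active in blood stem cells. In MLL-rearranged leukaemia its amino-terminal part, which binds menin and LEDGF, is joined to a partner such as AF9 (Mllt3), ENL (Mllt1), AF10 (Mllt10) or AF4 (Aff1). These partners bring DOT1L, which methylates histone H3 on lysine 79, and the super elongation complex, in which AFF4 carries the kinase pair P-TEFb with CDK9, to the target genes.

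Values are FPKM, fragments scaled by transcript length and library size, and relative depth between the shallowest and the deepest sample ran from 0.484 to 1.53 of the median sample. The shallowest groups were LT-HSC (0.484 to 0.769), ST-HSC (0.525 to 0.759), MEP (0.621 to 0.689) and STHSC:MA9 (0.56 to 0.847), against 0.814 to 1.2 in MPP:MA9. The summed FPKM of the granulocyte genes S100a8, S100a9, Ngp and Ltf ran from 17.5 to 58200 among the 5 LT-HSC samples and from 39.3 to 34300 among the 5 ST-HSC samples, from 10.4 to 10100 in the other normal groups and from 570 to 40100 among the 19 leukaemias. In LT-HSC and ST-HSC the high values were those of replicates 4 and 5. The erythroid genes summed to at most 6650 FPKM in LT-HSC and to 1.93 to 110 FPKM in the leukaemias, where Gata1 was listed at 0 in all CMP:MA9 samples, and the 4 lymphocyte genes to at most 84.8 FPKM in any sample. The part of such cells in the results was not tested other than by leaving out replicates 4 and 5 of ST-HSC. The stem and progenitor receptor Kit had group means of 57.2 to 110 FPKM in the normal populations and of 0.852 to 2.98 FPKM in the leukaemias. By the methods LT-HSC, ST-HSC, MPP, CMP and GMP had been sorted as c-Kit+ cells, and the leukaemias had not been sorted on c-Kit. The erythroid factor Gata1 was highest in MEP at 52.0 ± 2.57 FPKM (SD, n = 4). The methods call the replicates independent biological replicates, and the paper states that every sample came from its own mouse, over replicate experiments. The labels used here name neither animals nor experiments, so that the experiment could not be entered in the fits. Leukaemias of 1 experiment may also share infected cells. The p-values measure the spread between these samples.

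**Figure D1:**
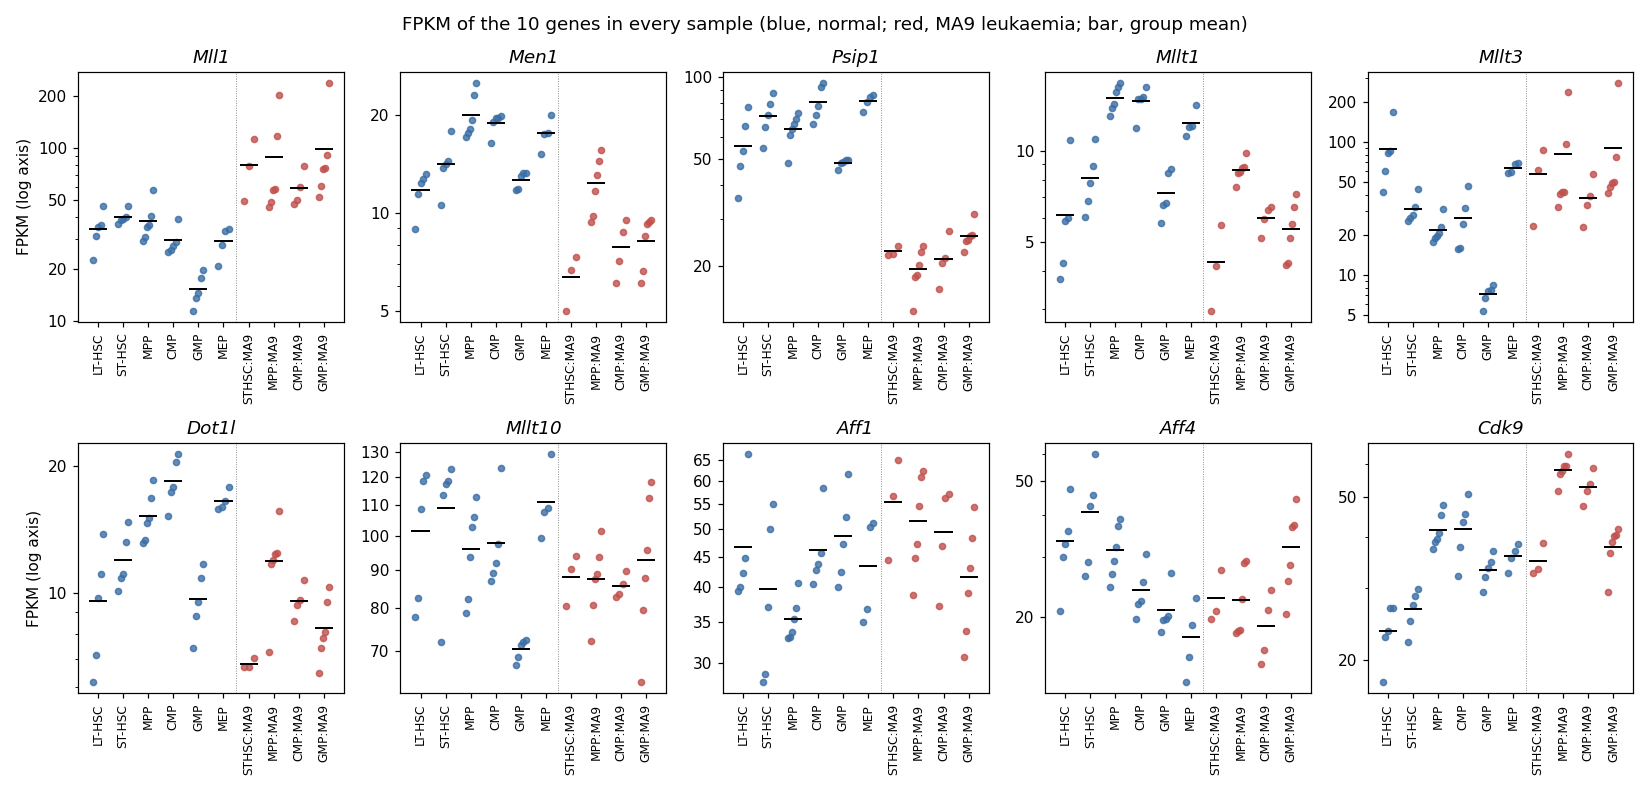
FPKM (log axis, scaled separately in each panel) of the 10 genes in every sample, with the 6 normal populations in blue, the 4 leukaemia groups in red and group means as black bars. All 19 leukaemias lie below all 30 normal samples for Psip1 (13.72 to 31.24 against 35.72 to 95.03 FPKM).

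Psip1, Men1 and Mllt1 were lower and Mll1 was higher in every leukaemia group than in its normal cell, and Mllt3 was higher in MPP:MA9 and GMP:MA9. A gene is said to have passed at a limma adjusted p below 0.05 across 12600 genes, and to have been called if it also changed above 2-fold. In STHSC:MA9 against ST-HSC 3 members rose and 5 fell, where 23.8% and 24.6% of all genes did, and 2 were called (24.2% of all genes). In MPP:MA9 against MPP 4 rose and 5 fell (27.7% and 34.8% of all genes) and 2 were called (27.1%). In CMP:MA9 against CMP 2 rose and 4 fell (23.9% and 36.0%) and 3 were called (27.8%), and in GMP:MA9 against GMP 4 rose and 3 fell (29.7% and 28.7%) and 2 were called (22.4%). Without overlap between the samples, 2, 2, 1 and 2 members lay above their normal cell in the leukaemias of ST-HSC, MPP, CMP and GMP origin (19.6%, 19.3%, 19.2% and 20.1% of all genes) and 4, 3, 4 and 2 below it (20.1%, 21.1%, 29.3% and 19.5%). With median-ratio scaling 3 members fell in MPP:MA9 in place of 5, and with GC and length correction 5 fell in GMP:MA9 in place of 3. After that correction 1 member, Psip1, was called in CMP:MA9, where Men1 (-0.99) and Mllt1 (-0.93) still passed. The median log2 change of the 10 genes was -0.50, -0.24, -0.26 and -0.01 in the leukaemias of ST-HSC, MPP, CMP and GMP origin, against -0.04, -0.09, -0.16 and 0.00 over all genes. Psip1, Men1 and Mllt1 fell in all 4 comparisons, as 12.0% of all genes did, and Mll1 rose in all 4, as 13.0% did.

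**Figure D2:**
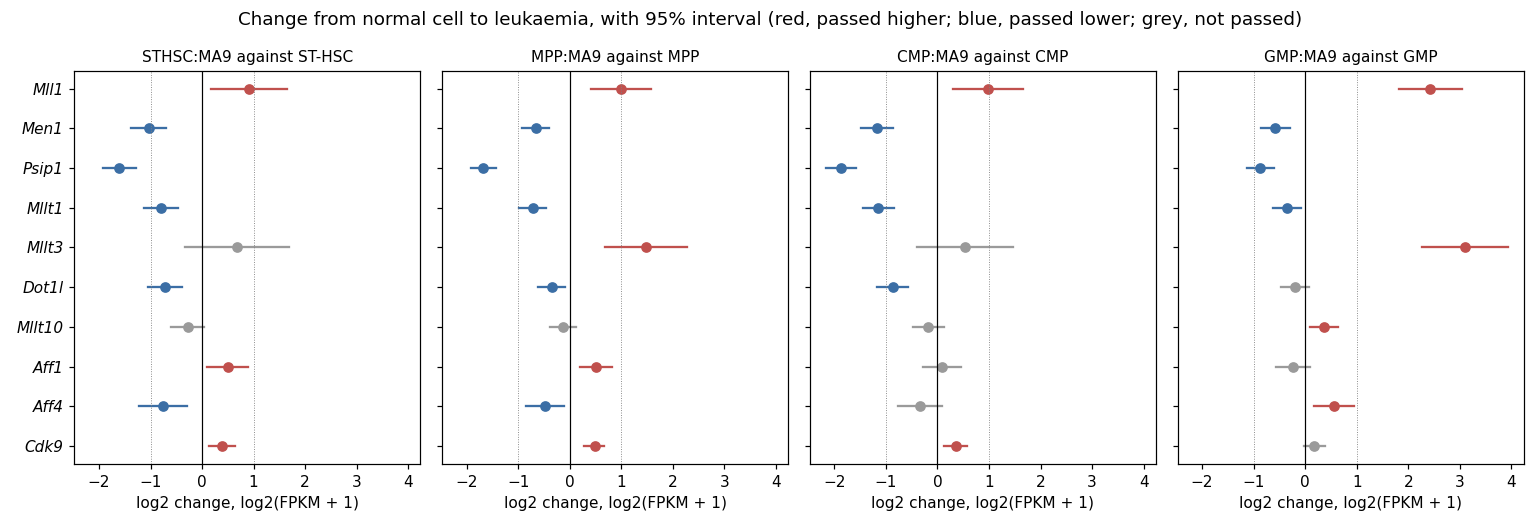
Log2 difference in FPKM + 1 between each leukaemia group and its normal cell for the 10 genes (horizontal axis), with bars for the 95% interval, in red or blue where the limma adjusted p was below 0.05 and in grey elsewhere. Psip1 lies furthest to the left in every comparison, at -1.61, -1.68, -1.88 and -0.87 from STHSC:MA9 to GMP:MA9, and Mllt3 furthest to the right in GMP:MA9 at 3.10.

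Of the 10 genes Psip1 fell furthest in each of the 4 leukaemias. It encodes LEDGF, the chromatin reader that tethers MLL1 and menin (ENSMUSG00000028484, chr4:83101584-83132363, minus strand, NCBIM37). In ST-HSC it stood at 87.51, 79.82, 65.54, 54.77 and 72.73 FPKM, and in STHSC:MA9 at 22.27, 22.1 and 23.76 FPKM. In MPP the lowest, median and highest values were 48, 65.92 and 73.73 FPKM, and in MPP:MA9 13.72, 19.33 and 23.78 FPKM. In CMP it stood at 78.52, 66.89, 95.03, 72.77 and 91.84 FPKM, and in CMP:MA9 at 26.92, 20.52, 21.54 and 16.49 FPKM. No leukaemia overlapped its normal cell. In GMP, whose mean was the lowest of the 6 normal populations, the values were 48.73, 49.38, 48.13, 45.36 and 49.37 FPKM, and in GMP:MA9 the lowest, median and highest were 22.62, 25.46 and 31.24 FPKM, again with no overlap. On the log2(FPKM + 1) scale Psip1 fell by 1.61 ± 0.15 (SE) in STHSC:MA9, by 1.68 ± 0.12 in MPP:MA9, by 1.88 ± 0.14 in CMP:MA9 and by 0.87 ± 0.13 in GMP:MA9, with limma adjusted p of 7.82e-11, 2.54e-14, 1.59e-13 and 5.35e-07. In bulk samples a lower share of cells with a transcript and less transcript per cell cannot be told apart. Psip1 shares 13.8% of its 31-base words with other genes, mainly with the overlapping Snapc3 (7.89%), so that a part of its FPKM is uncertain.

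Men1, which encodes menin, the scaffold between MLL1 and LEDGF, also fell in all 4 leukaemias (ENSMUSG00000024947, chr19:6334979-6340891, plus strand, NCBIM37). It went from 10.55, 14.1, 13.74, 14.41 and 17.84 FPKM in ST-HSC to 5.03, 6.71 and 7.36 FPKM in STHSC:MA9. It went from 19.51, 19.87, 18.96, 16.39 and 19.53 FPKM in CMP to 9.5, 8.76, 7.12 and 6.1 FPKM in CMP:MA9. The MPP samples ran from 17.13 through a median of 18.70 to 24.97 FPKM, above the MPP:MA9 samples at 9.42, 12.41 and 15.61 FPKM. In GMP the values of 13.25, 12.96, 13.26, 11.86 and 11.8 FPKM also lay above all GMP:MA9 samples, which ran from 6.11 to 9.52 FPKM with a median of 8.865. The log2 changes were -1.03 ± 0.16, -0.66 ± 0.13, -1.18 ± 0.15 and -0.58 ± 0.14 (SE) in the leukaemias of ST-HSC, MPP, CMP and GMP origin, with limma adjusted p of 2.18e-06, 3.48e-05, 2.87e-08 and 4.56e-04. The first of these lay close to the 2-fold limit, and without ST-HSC replicates 4 and 5, whose granulocyte genes were high, it was -0.91. After GC and length correction the change in CMP:MA9 was -0.99, under that limit.

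Mll1 itself (ENSMUSG00000002028, chr9:44611438-44689379, minus strand, NCBIM37) rose in all 4 leukaemias, but its FPKM can hold reads of the viral fusion, whose MLL part shares sequence with it, and the fusion and the cell's own gene cannot be told apart in these values. In ST-HSC it stood at 39.21, 36.7, 40.28, 38.4 and 46.09 FPKM and in STHSC:MA9 at 49.89, 78.59 and 113.33 FPKM. In CMP it stood at 25.1, 28.85, 27.39, 39.27 and 25.97 FPKM and in CMP:MA9 at 47.79, 50.01, 59.7 and 79.29 FPKM. Neither pair overlapped. The MPP samples reached from 29.2 through 35.48 to 57.15 FPKM and overlapped the MPP:MA9 samples, which reached from 46 through 57.84 to 203.27 FPKM. The GMP samples were the lowest of all at 19.68, 14.53, 13.67, 17.75 and 11.52 FPKM, and the GMP:MA9 samples reached from 52.33 through 76.22 to 238.08 FPKM. The log2 changes were 0.92 ± 0.36, 1.00 ± 0.29, 0.98 ± 0.33 and 2.43 ± 0.30 (SE), with limma adjusted p of 0.0359, 0.00296, 0.0118 and 2.53e-08 for the leukaemias of ST-HSC, MPP, CMP and GMP origin. The rise in STHSC:MA9 did not pass without its replicate 2 or 3 or without ST-HSC replicate 1, 2 or 4 (log2 changes of 0.63 to 0.91, adjusted p of 0.0507 to 0.221), nor without ST-HSC replicates 4 and 5 together (0.96, adjusted p = 0.0558), and the rise in CMP:MA9 did not pass without its replicate 4 (0.83, adjusted p = 0.0509).

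Mllt3 and Mllt1 are paralogues whose proteins, AF9 and ENL, read acylated histones through a YEATS domain and bind the same partners. Mllt3 (ENSMUSG00000028496, chr4:87415829-87679268, minus strand, NCBIM37) is the other gene whose FPKM can include the viral fusion. It rose from 5.39, 8.34, 7.66, 6.69 and 7.56 FPKM in GMP to between 41.49 and 274.59 FPKM in GMP:MA9, with a median of 49.47. It rose from 17.62, 19.96 and 31.21 FPKM (lowest, median and highest) in MPP to 32.28, 41.92 and 235.08 FPKM in MPP:MA9. In both comparisons every leukaemia lay above every normal sample. The log2 changes were 3.10 ± 0.41 in GMP:MA9 and 1.48 ± 0.39 (SE) in MPP:MA9, with limma adjusted p of 9.59e-08 and 0.00142. Without replicate 2 of both leukaemia groups the changes were 2.70 and 1.09. In STHSC:MA9 (23.07, 60.81 and 86.93 FPKM) and ST-HSC (32.42, 44.27, 26.53, 25.57 and 28.29 FPKM) the ranges overlapped, with a log2 change of 0.68 (95% interval -0.33 to 1.68, adjusted p = 0.270). In CMP:MA9 (22.67, 33.67, 38.96 and 56.73 FPKM) and CMP (15.51, 15.84, 31.81, 24.24 and 46.84 FPKM) they overlapped as well, with 0.53 (-0.39 to 1.46, adjusted p = 0.320).

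Mll1 and Mllt3 varied together among the leukaemias. After each group's mean had been taken off, their log2(FPKM + 1) values correlated over the 19 leukaemias with Pearson's r = 0.96 (permutation test, two-sided, p = 7e-05, adjusted p = 0.0003 over 4 tests) and Spearman's rho = 0.81 (permutation p = 0.0009, adjusted p = 0.002). Without the 2 samples farthest from the median, replicate 2 of GMP:MA9 (238.08 FPKM of Mll1 and 274.59 of Mllt3) and replicate 2 of MPP:MA9 (203.27 and 235.08), r was 0.87 over the other 17. Over the 30 normal samples r was 0.32 (permutation p = 0.1, adjusted p = 0.2) and rho 0.09 (permutation p = 0.7, adjusted p = 0.7), and r was 0.37 without GMP replicates 3 and 5. The difference between both correlations was not tested. Among 12127 genes Mllt3 had the highest r with Mll1 in the leukaemias, and the next was Serpine2 at 0.84. The median ratio of Mllt3 to Mll1 FPKM ran from 0.663 in CMP:MA9 to 0.84 in MPP:MA9 over the leukaemias, against 0.56 in GMP to 2.41 in LT-HSC over the normal populations. Without replicate 2, GMP:MA9 held 71.4 ± 15.1 FPKM of Mll1 and 52.4 ± 13.8 of Mllt3 (SD, n = 5), and MPP:MA9 held 65.6 ± 29.5 and 50.5 ± 25.9 (SD, n = 5). A level of the fusion transcript and a level of the endogenous genes cannot be told apart in these values. The paper measured the fusion by real-time PCR and reports it as significantly higher in GMP:MA9 than in CMP:MA9 bulk cells. How that measurement relates to the FPKM of single samples was not tested.

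**Figure D3:**
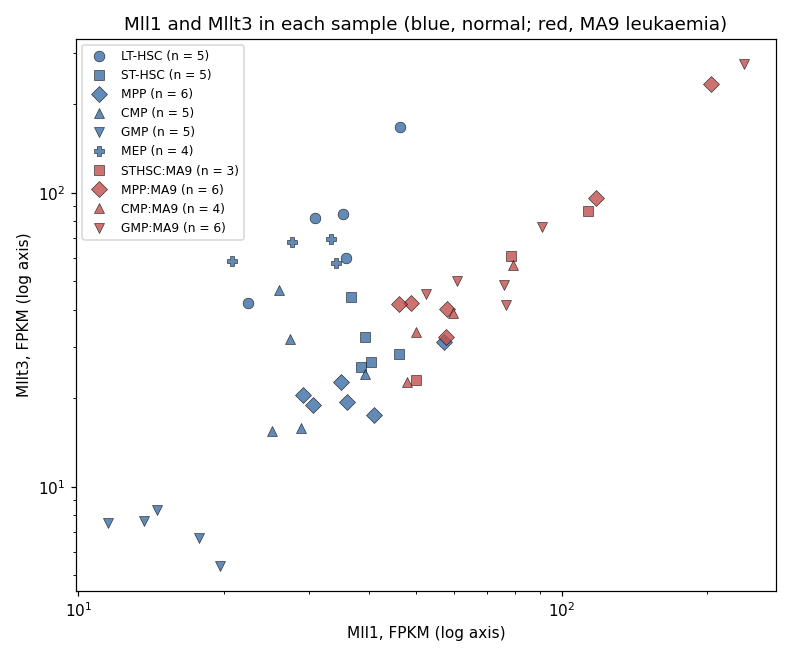
Mllt3 against Mll1, both in FPKM on log axes, in the 30 normal samples (blue) and the 19 leukaemias (red). The leukaemias follow a line up to replicate 2 of MPP:MA9 and GMP:MA9, at 203.27 and 238.08 FPKM of Mll1, and the GMP samples lie lowest, at 5.39 to 8.34 FPKM of Mllt3.

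Mllt1 moved the other way (ENSMUSG00000024212, chr17:57032035-57074836, minus strand, NCBIM37). It went from 6.79, 6.03, 10.95, 7.83 and 8.86 FPKM in ST-HSC to 2.96, 5.69 and 4.16 FPKM in STHSC:MA9. It went from 14.82, 16.23, 11.88, 14.75 and 15.06 FPKM in CMP to 5.16, 6.53, 6.34 and 5.93 FPKM in CMP:MA9. In MPP it ran from 13 through 14.94 to 16.69 FPKM, above the 7.57, 8.650 and 9.8 FPKM of MPP:MA9. These 3 comparisons showed no overlap, whereas GMP (8.69, 6.71, 8.44, 5.77 and 6.59 FPKM) and GMP:MA9 (4.2, 5.425 and 7.21 FPKM, lowest, median and highest) overlapped. Mllt1 fell by 0.79 ± 0.16, 0.72 ± 0.13, 1.15 ± 0.15 and 0.35 ± 0.13 (SE) on the log2 scale in the leukaemias of ST-HSC, MPP, CMP and GMP origin, with limma adjusted p of 1.05e-04, 8.59e-06, 3.88e-08 and 0.0256. The fall in GMP:MA9 did not pass without GMP replicate 1 (adjusted p = 0.0861) or 3 (0.0783) or GMP:MA9 replicate 1 (0.0706) or 5 (0.0718). After GC and length correction the change in CMP:MA9 was -0.93, which is under 2-fold. The median ratio of Mllt1 to Mllt3 FPKM was 0.872 in GMP and 0.0985 in GMP:MA9, 0.758 in MPP and 0.209 in MPP:MA9, 0.608 in CMP and 0.178 in CMP:MA9, and 0.306 in ST-HSC and 0.0936 in STHSC:MA9, where the Mllt3 values of leukaemias can include reads of the fusion.

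Dot1l, the lysine 79 methyltransferase for histone H3, fell in 3 of the 4 leukaemias (ENSMUSG00000061589, chr10:80217951-80258206, plus strand, NCBIM37). In ST-HSC its values were 11.11, 10.11, 14.7, 10.84 and 13.2 FPKM and in STHSC:MA9 7.04, 6.67 and 6.69 FPKM. In CMP they were 17.31, 21.26, 15.2, 17.79 and 20.46 FPKM and in CMP:MA9 9.38, 9.61, 10.75 and 8.59 FPKM. These groups did not overlap, and the log2 changes were -0.72 ± 0.16 and -0.87 ± 0.15 (SE), with limma adjusted p of 3.44e-04 and 6.22e-06. In MPP:MA9 (7.24, 12.14 and 15.64 FPKM) against MPP (13.11, 14.83 and 18.46 FPKM) the change was -0.35 ± 0.13 with adjusted p = 0.0169, and it did not pass without MPP:MA9 replicate 2 (-0.23, adjusted p = 0.0906) or MPP replicate 5 (-0.30, adjusted p = 0.0507). In GMP:MA9 (6.46, 7.960 and 10.31 FPKM) against GMP (11.73, 7.43, 10.83, 9.53 and 8.81 FPKM) it was -0.20 (95% interval -0.47 to 0.07, adjusted p = 0.206), and with values corrected for the GC content and length of each gene it was -0.50 (adjusted p = 6.81e-04).

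Mllt10, which encodes the DOT1L cofactor AF10, kept the narrowest range of the members among the leukaemias (ENSMUSG00000026743, chr2:17976898-18134017, plus strand, NCBIM37). Its group means differed by 1.58-fold among the normal populations and by 1.09-fold among the leukaemias. It rose in GMP:MA9, from 68.75, 71.32, 72.5, 66.97 and 72.05 FPKM in GMP to 63.58, 91.67 and 118.37 FPKM (lowest, median and highest) in the leukaemias. The ranges overlapped, the log2 change was 0.37 ± 0.13 (SE, limma adjusted p = 0.0173), and without GMP:MA9 replicate 1 or 2 it did not pass (adjusted p = 0.0529 and 0.0592). In the other 3 comparisons the log2 changes were -0.28, -0.13 and -0.18, with adjusted p of 0.147, 0.373 and 0.298, and without ST-HSC replicate 4 the first was -0.42 with adjusted p = 0.0170. Mllt10 shares 12.6% of its 31-base words with other genes, the overlapping Dnajc1 among them. The median ratio of Mllt10 to Dot1l FPKM was 8.60 in ST-HSC and 13.3 in STHSC:MA9, 5.02 in CMP and 8.94 in CMP:MA9, 7.03 in GMP and 10.3 in GMP:MA9, and 6.57 in MPP and 6.97 in MPP:MA9.

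Among the members, the kinase Cdk9 and the scaffolds Aff4 and Aff1 of the super elongation complex changed by under 2-fold. Cdk9, the kinase of P-TEFb that phosphorylates RNA polymerase II (ENSMUSG00000009555, chr2:32561304-32568596, minus strand, NCBIM37), rose in STHSC:MA9, MPP:MA9 and CMP:MA9. It went from 24.92, 22.2, 28.61, 27.32 and 29.87 FPKM in ST-HSC to 32.54, 38.51 and 33.38 FPKM in STHSC:MA9. It went from 37.27, 40.22 and 47.73 FPKM (lowest, median and highest) in MPP to 51.65, 58.64 and 63.35 FPKM in MPP:MA9. Neither pair overlapped, whereas CMP (45.29, 43.3, 37.81, 32.05 and 50.63 FPKM) overlapped CMP:MA9 (47.41, 53.76, 51.74 and 58.88 FPKM). The log2 changes were 0.38 ± 0.12, 0.48 ± 0.10 and 0.35 ± 0.11 (SE), with limma adjusted p of 0.00991, 6.17e-05 and 0.00837. The first did not pass without STHSC:MA9 replicate 2 (0.31, adjusted p = 0.0721). In GMP:MA9 the change was 0.17 (adjusted p = 0.139), and without replicate 2, the library with the highest Mll1 and Mllt3, it was 0.24 with adjusted p = 0.0346.

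Aff4, the scaffold of the super elongation complex (ENSMUSG00000049470, chr11:53164335-53235332, plus strand, NCBIM37), fell in 2 leukaemias and rose in GMP:MA9. Its levels were 42.31, 59.94, 29.06, 26.52 and 45.68 FPKM in ST-HSC and 19.82, 27.57 and 20.9 FPKM in STHSC:MA9. They were 24.6, 30.75 and 38.85 FPKM in MPP (lowest, median and highest) and 18, 20.48 and 29.24 FPKM in MPP:MA9. They were 18.08, 19.71, 20.21, 27.01 and 19.81 FPKM in GMP and 20.53, 32.63 and 44.42 FPKM in GMP:MA9. All 3 pairs overlapped, and the log2 changes were -0.76 ± 0.23, -0.48 ± 0.18 and 0.56 ± 0.19 (SE) with limma adjusted p of 0.00579, 0.0222 and 0.0112. With values corrected for the GC content and length of each gene, the change was -0.35 (adjusted p = 0.0564) in MPP:MA9 and 0.27 (adjusted p = 0.166) in GMP:MA9, and without MPP:MA9 replicate 1, 4 or 5 or MPP replicate 2 or 5 the change in MPP:MA9 did not pass (adjusted p of 0.0527 to 0.0579). In CMP:MA9 it was -0.34 (adjusted p = 0.164). Aff1, which encodes AF4, another scaffold of such complexes (ENSMUSG00000029313, chr5:104121393-104284341, plus strand, NCBIM37), rose in STHSC:MA9 (0.50 ± 0.20, adjusted p = 0.0329) and MPP:MA9 (0.51 ± 0.16, adjusted p = 0.00506), with overlapping ranges of 44.48 to 65 against 27.91 to 55.04 FPKM and of 38.89 to 62.32 against 33.02 to 40.65 FPKM. The first of these did not pass without ST-HSC replicate 1, 2 or 3 or STHSC:MA9 replicate 2 or 3 (adjusted p of 0.0515 to 0.169). In CMP:MA9 and GMP:MA9 the changes of Aff1 were 0.09 (adjusted p = 0.704) and -0.23 (adjusted p = 0.228), the latter -0.47 (adjusted p = 0.0124) after GC and length correction.

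Whether the change depended on the cell of origin was tested by an F test of the differences between the 4 comparisons. Each comparison has its own normal cell, so that this test also passes where only the normal cells differ. Normal GMP had the lowest mean of the 10 groups for Mll1 (15.4 FPKM), Mllt3 (7.13 FPKM) and Mllt10 (70.3 FPKM). Those genes, Psip1, Aff1 and Aff4 did not pass the F test between the leukaemias given below. The F test of the differences passed for 9 of the 10 genes, where 38.0% of all genes passed. The adjusted p was 2.59e-04 for Psip1, whose fall was smallest in GMP:MA9, and 0.00335 for Mllt3 and 0.0119 for Mll1, whose rise was largest there. It was 0.00176 for Aff4, which fell in 2 comparisons and rose in GMP:MA9, and 0.0268 for Aff1 and 0.0306 for Mllt10. It was 0.0145 for Mllt1, 0.0231 for Dot1l and 0.0409 for Men1, whose largest falls were in CMP:MA9. For Cdk9 it was 0.304. With median-ratio scaling Men1 (0.107), Mllt1 (0.0568), Dot1l (0.0674) and Mllt10 (0.0705) did not pass this F test, and Cdk9 did (0.0466). Men1 also did not pass without the filter on low values (0.0566) or with a replicate block (0.0585). After correction for GC content and length 5 genes passed, which were Psip1 (2.97e-04), Aff1 (0.00141), Mllt3 (0.0129), Cdk9 (0.0212) and Aff4 (0.0298), while Mll1 (0.130), Men1 (0.244), Mllt1 (0.0871), Dot1l (0.367) and Mllt10 (0.106) did not.

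The leukaemias of different origin were also compared with each other. Men1, Mllt1, Dot1l and Cdk9 passed the F test over the 4 leukaemia groups (limma adjusted p of 0.0135, 0.00603, 0.0337 and 4.38e-04), 4 of 10 where 13.3% of all genes passed. In STHSC:MA9 all 4 genes were lower than in MPP:MA9, by log2 differences of -0.85 (adjusted p = 0.00766), -0.90 (0.00293), -0.69 (0.0162) and -0.72 (0.00106), and none of these overlapped. Of all genes 8.87% were lower in that comparison, and in 12.6% of all genes the STHSC:MA9 samples lay below the MPP:MA9 samples. In MPP:MA9 the same 4 were higher than in GMP:MA9, by 0.53 (0.0237), 0.59 (0.00765), 0.46 (0.0342) and 0.61 (4.13e-04), as were 11.3% of all genes, while Psip1 was lower (-0.41, adjusted p = 0.0385), as were 4.67%. Cdk9 alone among the members was also lower in STHSC:MA9 than in CMP:MA9 (-0.59, adjusted p = 0.0405, 0.453% of all genes lower) and higher in CMP:MA9 than in GMP:MA9 (0.48, adjusted p = 0.0339, 0.923% of all genes higher), and with a replicate block neither difference passed (adjusted p = 0.171 and 0.151). No member passed between MPP:MA9 and CMP:MA9 (0.157% of all genes) or between STHSC:MA9 and GMP:MA9 (1.10%). These 4 genes have the highest exonic GC content among the members (Mllt1 59.6%, Dot1l 58.2%, Men1 57.9% and Cdk9 54.5%, the others 41.8% to 50.6%), and after correction for GC content and length none of the 10 passed the F test or any pair of leukaemia groups, with adjusted p of 0.0553 for Cdk9, 0.301 for Men1, 0.388 for Mllt1 and 0.888 for Dot1l. STHSC:MA9 was also the shallowest leukaemia group in relative depth, with 0.56 to 0.847 of the median sample, and the part of depth in these differences was not tested.

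**Figure D4:**
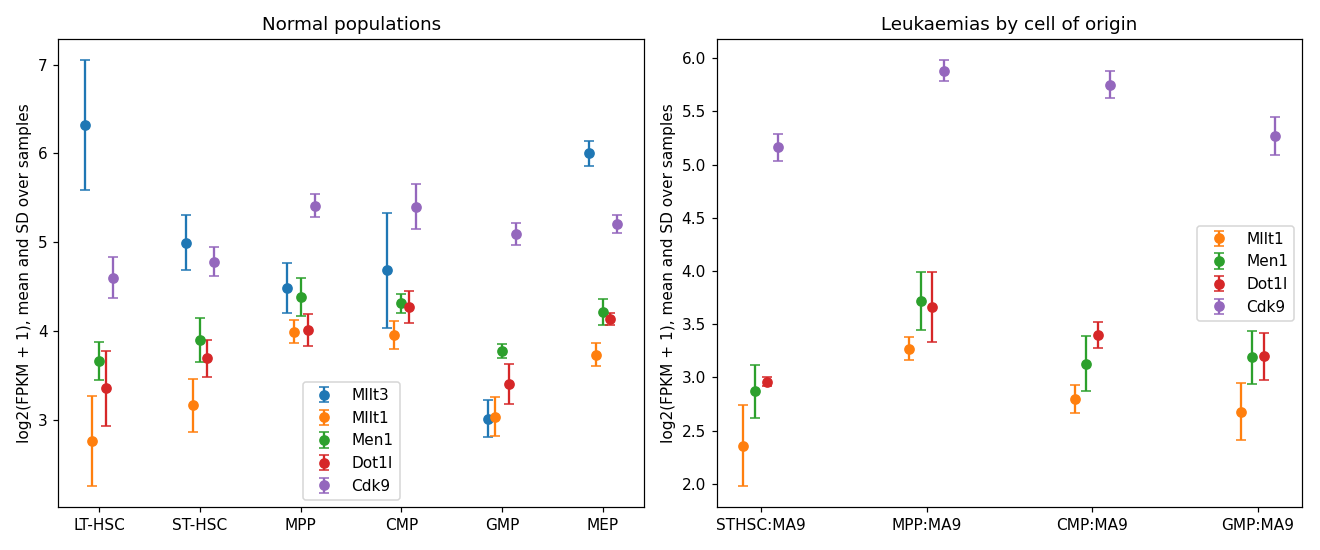
Mean log2(FPKM + 1) (vertical axis) with bars for the SD over samples, of Mllt3, Mllt1, Men1, Dot1l and Cdk9 in the 6 normal populations (left) and of the last 4 of these in the leukaemias (right). In the leukaemias all 4 genes stand higher in MPP:MA9 than in STHSC:MA9 and GMP:MA9, and among normal cells Mllt3 is highest in LT-HSC and MEP.

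Men1, Mllt1 and Dot1l also followed each other over the 10 group means (Pearson's r of 0.94 for Men1 with Mllt1, 0.97 for Mllt1 with Dot1l and 0.92 for Men1 with Dot1l, a description over 10 points, for genes of like GC content). The promoters of Men1, Mllt1, Dot1l and Cdk9 are shown because these genes passed the F test between leukaemias before GC correction, and that of Mllt3, which did not pass in that F test (adjusted p = 0.583), for comparison. RefSeq windows of 300 bases, from 250 before to 50 after a start site, were found for 9 of the 10 genes in GRCm38.p6. Capitals mark CCGGAAG, a core recognised by ETS-family factors, on either strand. It was chosen with these results known, and 8.86% of 32851 promoter windows hold it. Men1 has 3 windows and Mllt3 has 2, of which the first is shown for each. The windows are chr19:6334729-6335028 (plus strand) for Men1, chr17:56935339-56935638 (minus strand) for Mllt1, chr10:80754953-80755252 (plus strand) for Dot1l, chr2:32712735-32713034 (minus strand) for Cdk9 and chr4:88033358-88033657 (minus strand) for Mllt3.
Men1: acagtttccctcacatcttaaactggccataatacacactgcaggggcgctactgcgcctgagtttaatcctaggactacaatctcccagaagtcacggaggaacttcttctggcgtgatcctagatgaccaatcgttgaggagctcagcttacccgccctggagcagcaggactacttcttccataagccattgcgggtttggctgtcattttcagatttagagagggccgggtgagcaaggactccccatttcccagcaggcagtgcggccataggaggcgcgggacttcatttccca
Mllt1: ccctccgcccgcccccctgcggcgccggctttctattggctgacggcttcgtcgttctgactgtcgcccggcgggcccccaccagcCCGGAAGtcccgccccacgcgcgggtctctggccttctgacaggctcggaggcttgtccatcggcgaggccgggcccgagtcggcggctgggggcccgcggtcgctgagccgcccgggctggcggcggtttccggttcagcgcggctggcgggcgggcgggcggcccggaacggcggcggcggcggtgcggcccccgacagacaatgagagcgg
Dot1l: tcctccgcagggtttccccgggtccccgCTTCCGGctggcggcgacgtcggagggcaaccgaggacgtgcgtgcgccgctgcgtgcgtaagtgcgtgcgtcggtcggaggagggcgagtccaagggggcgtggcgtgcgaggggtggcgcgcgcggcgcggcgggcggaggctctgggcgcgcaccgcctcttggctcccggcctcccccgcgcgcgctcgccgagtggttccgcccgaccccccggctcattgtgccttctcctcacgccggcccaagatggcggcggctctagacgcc
Cdk9: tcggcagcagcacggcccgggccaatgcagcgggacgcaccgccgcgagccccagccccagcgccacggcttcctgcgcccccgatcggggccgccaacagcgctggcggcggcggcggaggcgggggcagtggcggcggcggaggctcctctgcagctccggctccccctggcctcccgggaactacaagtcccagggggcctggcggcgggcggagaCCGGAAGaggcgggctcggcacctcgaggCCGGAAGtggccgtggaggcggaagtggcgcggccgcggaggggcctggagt
Mllt3: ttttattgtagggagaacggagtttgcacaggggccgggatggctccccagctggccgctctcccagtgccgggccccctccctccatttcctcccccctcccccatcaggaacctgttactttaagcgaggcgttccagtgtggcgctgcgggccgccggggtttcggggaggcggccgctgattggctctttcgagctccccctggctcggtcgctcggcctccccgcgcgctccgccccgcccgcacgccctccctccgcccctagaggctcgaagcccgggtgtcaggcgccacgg
The Mllt1 and Dot1l windows hold CCGGAAG once and the Cdk9 window 2 times, and the windows of the other 6 members with an entry, Men1 among them, do not hold it. The Mllt1, Dot1l and Cdk9 windows have 46, 49 and 39 CG pairs, the Mllt3 window shown 29 and the Men1 window shown 11, where the median of all promoter windows is 7. Other members that did not pass the F test between leukaemias also have CG-rich windows. Aff4 has 44 CG pairs, Mll1 36, Aff1 40 and 22 and Mllt10 6, 43 and 7 in its windows. The second Mllt3 window has 4 and no GGGCGG. The GC box GGGCGG was in all 5 windows shown and in 35.7% of all promoter windows, and AGATAA, a core for GATA factors, was in none of them and in 11.2%.

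Among the normal populations 9 of the 10 genes differed (limma F test over 12367 genes, 78.4% of all genes), all but Aff1 (adjusted p = 0.114). Aff1 passed with median-ratio scaling (adjusted p = 0.0226) and after GC and length correction (0.00173), and Men1 did not pass after that correction (0.127). Mllt3 varied most, by 12.3-fold between its highest and lowest group mean. It stood at 82.47, 167.76, 85.08, 42.15 and 60.15 FPKM in LT-HSC, at 67.89, 69.42, 58.66 and 57.7 FPKM in MEP and at 5.39, 8.34, 7.66, 6.69 and 7.56 FPKM in GMP. LT-HSC and MEP overlapped each other, and GMP overlapped no other population. No fusion was present in these cells. Mllt3 was lower in ST-HSC than in LT-HSC (log2 difference -1.33 ± 0.27 SE, limma adjusted p = 0.00204), the only member that passed that step, at which 9.19% of all genes passed. ST-HSC replicate 2 (44.27 FPKM) lay above LT-HSC replicate 4 (42.15 FPKM), so that the ranges overlapped. Replicates 4 and 5 of both groups were those with high granulocyte genes. In MEP against CMP Mllt3 was higher (1.33 ± 0.29 SE, adjusted p = 7.07e-04), as were 8.55% of all genes, and no other member passed. With median-ratio scaling Mllt10 passed there as well (adjusted p = 0.0226), and after GC and length correction too (0.00551).

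From ST-HSC to MPP 3 members were higher, Mllt1 (0.83, adjusted p = 8.61e-04), Cdk9 (0.63, 2.81e-04) and Men1 (0.48, 0.00476), where 14.5% of all genes were higher. The first 2 did not overlap, as 9.26% of all genes did not in that direction. After correction for GC content and length Cdk9 still passed (0.34, adjusted p = 0.0233) and Mllt1 (0.38, 0.0676) and Men1 (0.08, 0.670) did not. From MPP to CMP 0 members passed by limma (14.5% of all genes). From CMP to GMP 8 of the 10 genes were lower, where 27.1% of all genes were lower, and the median log2 difference was -0.64 against -0.20 over all genes. Mllt3 differed most (-1.67, adjusted p = 1.72e-05), followed by Mllt1 (-0.92, 1.22e-04), Mll1 (-0.89, 3.10e-04), Dot1l (-0.87, 6.23e-05), Psip1 (-0.73, 4.56e-04), Men1 (-0.54, 8.63e-04), Mllt10 (-0.46, 0.0124) and Cdk9 (-0.31, 0.0397), while Aff4 stood at -0.19 (0.504) and Aff1 at 0.07 (0.793). Cdk9 alone of the 8 overlapped between CMP and GMP, where 24.9% of all genes lay lower without overlap. With median-ratio scaling, which set the median over all genes to -0.01, 6 genes passed, without Mllt10 and Cdk9, and after GC and length correction Mll1 (-0.46, 0.0125), Psip1 (-0.65, 7.39e-05) and Mllt3 (-1.49, 3.22e-05) passed.

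The 54 other genes of the pathway, of which 53 were tested, divided by role. Of the 9 target genes of MLL fusions, 5, 6, 7 and 8 rose in the leukaemias of ST-HSC, MPP, CMP and GMP origin, where 23.8%, 27.7%, 23.9% and 29.7% of all genes rose. Only Meis1 of the 9, a homeobox cofactor, fell, in STHSC:MA9 (-0.94, adjusted p = 0.0156). In GMP:MA9 the median log2 change of the 9 was 2.65, against 0.00 over all genes. In normal GMP all 9 were lower than in normal CMP, as 27.1% of all genes were (median log2 difference -0.99, against -0.20 over all genes). None of the 9 passed in any pair of leukaemia groups. In MPP:MA9 against GMP:MA9 11.3% of all genes were higher and 4.67% lower. Hoxa10, a homeobox factor of early progenitors, went from at most 0.18 FPKM in the GMP samples to a mean of 15.2 FPKM in GMP:MA9 (log2 change 3.83, adjusted p = 5.37e-15), Eya1, a transcriptional coactivator, from 1.31 to 29.8 FPKM (3.70, 3.96e-17) and Pbx3, a partner of the HOX proteins, from 1.89 to 28.2 FPKM (3.05, 2.03e-07). In the other 3 leukaemias the largest changes were elsewhere. Aff3, a paralogue of Aff1 and Aff4, fell from a mean of 39.3 to 0.347 FPKM in STHSC:MA9 (-4.89), from 67.8 to 2.06 FPKM in MPP:MA9 (-4.67) and from 39.2 to 1.26 FPKM in CMP:MA9 (-4.18). Tet1, a fusion partner that oxidises methylated cytosine, fell as well (log2 changes of -4.25, -3.50 and -3.41 in the same order), and Gas7, another fusion partner, rose by 2.37, 3.60 and 3.33.

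The PAF1 complex, which helps MLL1 and its fusions bind chromatin, had 0, 4, 5 and 4 of 6 genes that fell in the leukaemias of ST-HSC, MPP, CMP and GMP origin (24.6%, 34.8%, 36.0% and 28.7% of all genes) and none that rose. Its Wdr61 stood at a mean of 81.0 FPKM in GMP and 30.5 FPKM in GMP:MA9 (-1.45, adjusted p = 1.91e-07). Of the 8 genes of the MLL1 core complex, 1, 1, 0 and 0 rose and 0, 2, 3 and 2 fell. Of 6 other lysine 4 methyltransferases 0, 1, 1 and 3 rose and 2, 1, 1 and 0 fell. Of 11 tested elongation factors 1, 0, 0 and 4 rose and 2, 2, 4 and 2 fell. Of 10 other fusion partners 4, 5, 5 and 6 rose and 2 fell in each comparison. Of 3 other associates of AF9 and DOT1L 0, 1, 0 and 0 rose and 2, 2, 1 and 1 fell, with Skp1a, a ubiquitin ligase subunit, lower in all 4 (-0.80, -1.55, -1.09 and -1.30). Over all 53 genes 11 rose and 9 fell in STHSC:MA9, 14 and 13 in MPP:MA9, 13 and 16 in CMP:MA9 and 21 and 11 in GMP:MA9. Of all genes 23.8%, 27.7%, 23.9% and 29.7% rose and 24.6%, 34.8%, 36.0% and 28.7% fell, in the same order.

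**Figure D5:**
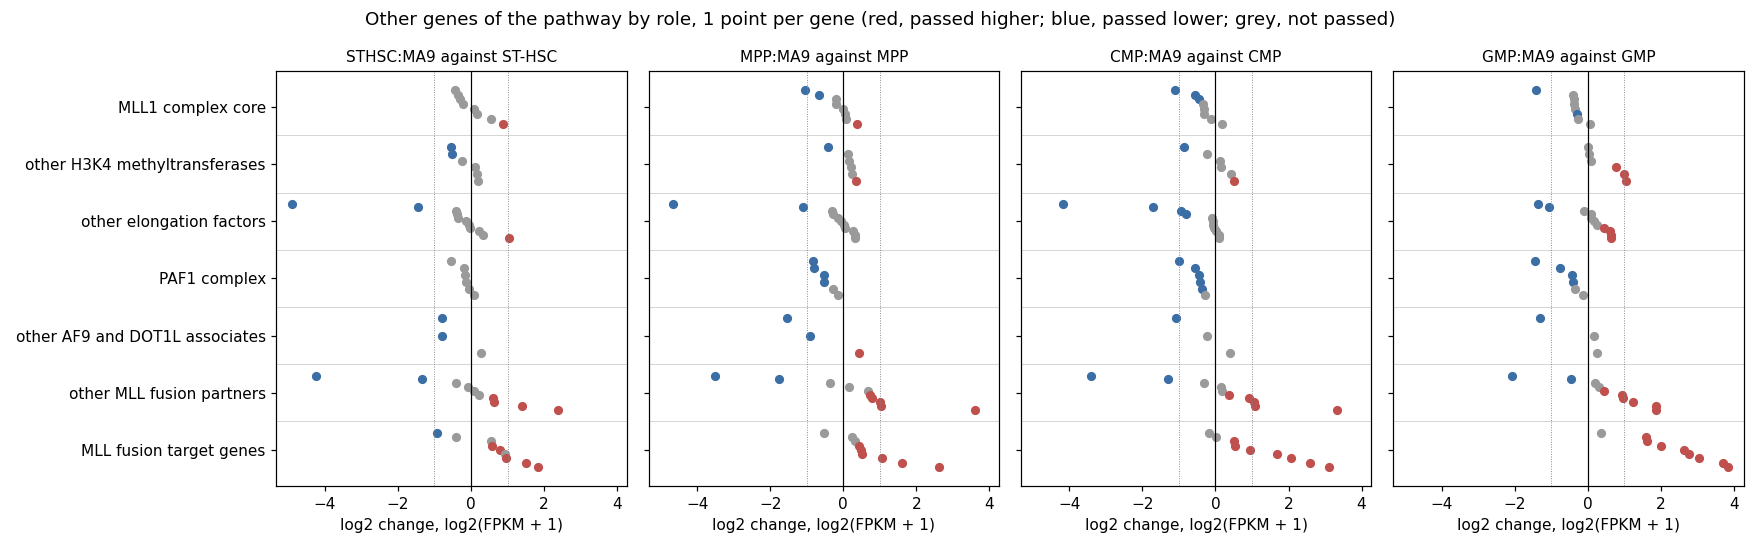
Log2 change of FPKM + 1 for the 53 other genes tested, by role (rows) and leukaemia (panels), with 1 point per gene, red or blue where the limma adjusted p was below 0.05. The target genes lie to the right in GMP:MA9, with a median of 2.65, and Aff3 and Tet1 far to the left in the other 3 panels. All 9 target genes were lower in normal GMP than in normal CMP.

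The genes most like each of 3 members over the 10 group means, by Pearson's r among 12156 genes, were Jmjd1c (0.983), 2810474O19Rik (0.969) and Gm10040 (0.962) for Mll1, Purg (0.927), Rlf (0.911) and Zfp318 (0.905) for Mllt3, and Gm12184 (0.980), Hsf1 (0.979) and Raver1 (0.979) for Dot1l. These are the highest of 12156 correlations over only 10 points, given as a description. The Mll1 and Mllt3 values of the leukaemias can include reads of the fusion. Jmjd1c encodes a histone demethylase of the JmjC family and Hsf1 the heat shock factor. Jmjd1c is also in the list of target genes, where it rose in all 4 leukaemias (0.58, 0.51, 0.52 and 1.63).

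By group mean, the order of the 10 groups held few steps at which neighbours did not overlap. For Mll1 these were from CMP:MA9 (59.2 FPKM) to ST-HSC (40.1), and from MEP (29.0) to GMP (15.4). For Psip1 the step was from GMP (48.2) to GMP:MA9 (25.9), for Mllt1 from MEP (12.3) to MPP:MA9 (8.65), for Mllt10 from CMP:MA9 (85.6) to GMP (70.3) and for Mllt3 from MPP (21.7) to GMP (7.13). The 4 highest means of Mllt3 were those of GMP:MA9 (89.5), LT-HSC (87.5), MPP:MA9 (81.3) and MEP (63.4). For Men1, Dot1l, Aff1, Aff4 and Cdk9 every group overlapped the next in order. Men1 was lowest in STHSC:MA9 (6.37), Dot1l highest in CMP (18.4) and lowest in STHSC:MA9 (6.80), and Cdk9 highest in MPP:MA9 (58.1) and lowest in LT-HSC (23.6).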

How the data were processed

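RNA of 30 normal and 19 leukaemia samples had been amplified (NuGen Ovation V2), made into TruSeq libraries and quantified by the authors with RSEM on mm9 (NCBIM37); the aligner and gene annotation are not given in the sources used here. The deposited values are FPKM per gene, with no counts, so that limma on log2(FPKM + 1) took the place of the count test of the study. The table has 38253 genes and 68 columns, of which 19 that belong to no sample used here were not used. Gene names, positions and GC content came from the NCBIM37 annotation, by gene identifier. Replicates of a group were never identical. The libraries do not mark strand as far as the sources say, so that reads of overlapping genes cannot be told apart.

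The filter on low values kept genes that averaged 1 FPKM or more in the samples fitted. These entered limma 3.58.1 (R 4.3.3, eBayes with trend, two-sided, Benjamini-Hochberg over all genes), in 3 fits: 4 leukaemias with their normal cells (12600 genes), 19 leukaemias (12128) and 30 normal samples (12367). Correlations used scipy 1.17.1 with 100000 permutations. Samples were grouped by the labels. The members, the pathway and marker lists and the tests were chosen with earlier results of these data known. Named were all 10 members, the 3 called genes of the pathway list with the largest change in each leukaemia comparison, and the 3 genes most like Mll1, Mllt3 and Dot1l; Wdr61, Skp1a, Meis1 and Serpine2 were named after their values were seen. The fit was tested on simulated data for GMP:MA9 against GMP (12600 genes), where 195 of 200 genes changed by 3 on the log2 scale and 190 of 200 changed by 1.5 were recovered with 3 and 4 false calls. With a simulated GC trend between GMP:MA9 and GMP and no gene changed, the uncorrected fit made 515 false calls among 12090 genes and the GC-corrected fit 0. The size of that trend was set by hand and not taken from these data. Whether the correction also removes real differences of GC-rich genes was not tested. Relative depth came from the FPKM steps of 5292 genes found in few samples (94.3% of sample pairs fitted), and without counts no counting interval can be given.

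Alternatives were a pseudocount of 0.1, no filter, median-ratio scaling, only the groups compared, a replicate block, GC and length correction (33068 of 38253 genes have a value), no fold threshold and leaving out samples. Replicate numbers were checked for pairing by the correlation of same-numbered deviations from group means. Every pair was over 0.1 only for ST-HSC and LT-HSC (r of 0.153 to 0.684), where the pairing comes from the data and not from the labels, and the blocked difference of Mllt3 was -1.33 (adjusted p = 0.00297).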

Additional observations from a re-analysis of the deposited data

Results flagged for a closer look

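In 9 of the 90 combinations of a member and a group of at least 4 samples, the highest or lowest sample lay far from the rest by Dixon's test, which chance does in about 1 in 20 groups. Mll1 stood at 238.08 FPKM in GMP:MA9 replicate 2 (next 91.22) and Mllt3 at 274.59 FPKM in the same library (next 76.3), and Mllt3 stood at 235.08 FPKM in MPP:MA9 replicate 2 (next 96.25). Among the CMP samples Mll1 was 39.27 FPKM in replicate 4 (next 28.85), Men1 was 16.39 FPKM in the same replicate (next 18.96) and Aff1 was 58.37 FPKM in replicate 2 (next 45.6). Mllt10 was 71.87 FPKM in ST-HSC replicate 4 (next 113.51), Aff1 was 66.41 FPKM in LT-HSC replicate 4 (next 44.75), and Aff4 was 27.01 FPKM in GMP replicate 4 (next 20.21). Both replicates 4 of ST-HSC and LT-HSC were among the libraries with high granulocyte genes.

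For 9 members the F test found that the leukaemia's difference from its normal cell depended on the origin, which can come from the normal cells as well as from the leukaemias. The adjusted p was 0.0119 for Mll1, 0.0409 for Men1, 2.59e-04 for Psip1, 0.0145 for Mllt1, 0.00335 for Mllt3, 0.0231 for Dot1l, 0.0306 for Mllt10, 0.0268 for Aff1 and 0.00176 for Aff4. With median-ratio scaling Men1, Mllt1, Dot1l and Mllt10 did not pass.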

How the results depend on the processing

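In the 4 comparisons of a leukaemia with its normal cell, 663 values of single members under the alternatives kept their direction and side of the threshold. Another 39 no longer passed, 8 passed in addition and 0 changed direction. Pairs of leukaemia groups and steps between normal populations are not part of this tally. Without a fold threshold 8, 9, 6 and 7 members passed in the leukaemias of ST-HSC, MPP, CMP and GMP origin, against 2, 2, 3 and 2 called. With GC and length correction 1 member was called in CMP:MA9 against CMP, 5 passed the F test of a difference among origins (9 without it) and 0 the F test among the leukaemias (4 without it), and with the correction and the replicate block together these were 1, 5 and 0. The replicate block alone left 2 members, Mllt1 and Cdk9, in the F test among the leukaemias, whose numbers are not shown to pair samples, and ended the Cdk9 differences of STHSC:MA9 from CMP:MA9 (adjusted p = 0.171) and of CMP:MA9 from GMP:MA9 (0.151), and moved no other count of members in a direction by over 1.5 times. Leaving out 1 sample at a time gave 1 to 2 called members in STHSC:MA9 (1 without ST-HSC replicate 5), 2 to 3 in MPP:MA9, 3 to 4 in CMP:MA9, 2 in GMP:MA9, 6 to 9 in the F test of a difference among origins, 3 to 5 among the leukaemias and 9 to 10 among the normal populations. Alternatives chosen after seeing the data left 1 called member in STHSC:MA9 without ST-HSC replicates 4 and 5. Median-ratio scaling moved the median log2 change of all genes from -0.16 to -0.01 in CMP:MA9 and left 2 members higher and 4 lower there, whereas in MPP:MA9 it left 3 lower in place of 5, without Dot1l (0.0582) and Aff4 (0.0752). Without a filter the Psip1 difference between MPP:MA9 and GMP:MA9 did not pass. In fits of only the groups compared, Aff1 and Cdk9 in STHSC:MA9 (adjusted p = 0.140 and 0.0618), Dot1l in MPP:MA9 (0.0520), Cdk9 in CMP:MA9 (0.0520) and Mllt1 in GMP:MA9 (0.0684) did not pass. With GC and length correction Dot1l (-0.50, adjusted p = 6.81e-04) and Aff1 (-0.47, 0.0124) passed as lower in GMP:MA9. The cause of these shifts was not tested. The number of samples, from 3 a group, and the unknown read counts limit the precision.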
